A study of Mus musculus with 2 samples.

Results

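The Hox clusters are 4 runs of homeobox genes that assign position along the body axis. The 38 Hox genes described here lie in 4 spans of the mouse genome, build GRCm38, which were set by position and not by any measured value. Each span is a cluster with 50 kb on either side. The Hoxa span is chr6:52105000-52310000, the Hoxb span chr11:96140000-96420000, the Hoxc span chr15:102870000-103087000 and the Hoxd span chr2:74610000-74815000. The inner parts, called cores here, cover 507 kb and hold the genes, apart from the ends of Hoxa13 and Hoxd1, which reach past the edge of the core. The outer 50 kb ends, called flanks, cover 400 kb. The 2 deposited tables listed 501 CCGG sites in the cores and 217 in the flanks in at least 1 library, of 801723 in all.

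F9 is a mouse embryonal carcinoma line, the stem cells of a teratocarcinoma, which differentiate when given retinoic acid. There were 2 libraries, 1 of undifferentiated F9 cells grown on gelatin-coated plates and 1 of differentiated cells, named D4 (day 4), plated in low attachment dishes with 1 µM retinoic acid. The names of both libraries also carry the word untreated, which the labels do not explain. MethylRAD uses FspEI, an enzyme that cuts at a fixed distance from a methylated cytosine, so that a methylated site releases a short fragment that is sequenced and counted. The counts at a site rise with its methylation in the sample, but they give no fraction of molecules methylated, and the parts of retinoic acid, dish and time in a difference between the 2 states cannot be told apart.

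Hox genes are numbered from 1 at the 3′ end of a cluster to 13 at the 5′ end, and genes with the same number in different clusters are paralogues. Genes with low numbers are switched on first and act in the head and neck region, and those with high numbers act later and in the tail and limbs. Retinoic acid induces Hox genes in teratocarcinoma and embryonic stem cells, those at the 3′ end first, through retinoic acid receptors bound in and around the clusters. In pluripotent cells the clusters are CpG-rich, carry Polycomb marks and are known for low CpG methylation over their promoters.

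The undifferentiated library held 20550450 counts over all listed sites, 16687588 of them at CCGG, and the differentiated library 21291239 and 15705436. No listed site had fewer than 5 counts, so a site that is not listed had between 0 and 4 and cannot be read as unmethylated. The levels of 5 counts were 0.3 and 0.318 per 1000000 CCGG counts. There was 1 library per state, and no interval or test below covers the spread between cultures. Fisher's tests and the intervals of log2 ratios cover counting error, with counts filled in at unlisted sites taken as read. Wilson intervals treat sites, or counts for shares of counts, as independent draws. Sites at most 16 bp apart can count the same read, as 10.4% of the listed core sites can, and this makes the intervals too narrow. The labels name no molecular tags, and copies of 1 fragment made by PCR are not independent molecules.

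Promoter sequence was at hand for 22 of the 38 genes, in 24 windows of 300 bases (RefSeq, GRCm38.p6), each with 250 bases before and 50 after a gene start. The motif CCGG, which reads the same on both strands, was found in 19 of the 24 windows (79.2%), against 52.8% of 32851 promoter windows of all genes. These Hox windows held 48 CCGG sites, and 15 of them were listed in at least 1 library. The following 4 promoters, the 250 bases before the start, show how differently these windows were read. Capitals mark CCGG. Hoxd4 (chr2:74721728-74721977, + strand) held few CpGs and the promoter site with the most counts. Hoxd12 (chr2:74674763-74675012, + strand) held sites that were listed in 1 library and not in the other. Hoxd10 (chr2:74691641-74691890, + strand) held the most CCGG sites, and Hoxa13 (chr6:52260881-52261130, − strand) the most CpGs.
Hoxd4: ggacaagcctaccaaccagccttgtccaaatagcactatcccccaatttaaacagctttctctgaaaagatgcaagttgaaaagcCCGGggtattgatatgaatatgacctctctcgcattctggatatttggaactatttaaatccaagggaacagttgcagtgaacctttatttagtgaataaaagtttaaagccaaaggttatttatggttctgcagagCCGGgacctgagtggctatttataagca
Hoxd12: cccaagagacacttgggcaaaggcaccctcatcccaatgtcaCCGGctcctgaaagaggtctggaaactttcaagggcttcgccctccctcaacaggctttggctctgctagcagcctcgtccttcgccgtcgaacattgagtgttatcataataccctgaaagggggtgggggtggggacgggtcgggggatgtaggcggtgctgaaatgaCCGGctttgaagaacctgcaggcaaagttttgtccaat
Hoxd10: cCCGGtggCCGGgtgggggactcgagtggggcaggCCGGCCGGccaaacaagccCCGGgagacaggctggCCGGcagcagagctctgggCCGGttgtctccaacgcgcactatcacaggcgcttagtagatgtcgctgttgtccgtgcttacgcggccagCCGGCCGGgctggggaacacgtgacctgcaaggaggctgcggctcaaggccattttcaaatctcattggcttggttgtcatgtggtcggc
Hoxa13: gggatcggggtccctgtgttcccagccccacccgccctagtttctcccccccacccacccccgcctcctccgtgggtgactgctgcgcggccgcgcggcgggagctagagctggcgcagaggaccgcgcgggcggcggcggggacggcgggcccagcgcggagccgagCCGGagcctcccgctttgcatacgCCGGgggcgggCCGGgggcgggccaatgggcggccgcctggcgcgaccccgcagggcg

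In the Hoxd4 promoter, with 3 CpGs in its 250 bases, the CCGG site 28 bases before the start (chr2:74721950) had 38 counts in undifferentiated and 54 in differentiated cells. Both values are high for these clusters, and the site was not called different between the libraries (Fisher's exact test, adjusted p = 0.162). The other CCGG site of this promoter, at position 74721813, was listed in neither library. The Hoxd4 window lies inside the annotated Hoxd3 gene.

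Hoxd12, a posterior gene, had 3 CCGG sites in its window, 2 of them among the 250 bases shown. The site at 74674805 was unlisted in undifferentiated cells and had 11 counts in differentiated cells. The site at 74674975 had 15 counts and was then unlisted, and the site at 74675035, just after the start, had 11 counts and was then unlisted. Within 1 promoter the counts thus differed in opposite directions, and none of these sites was called.

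The Hoxd10 window held 10 CCGG sites, of which 1 was listed, with 10 counts in differentiated cells at 74691730. Hoxa13, with 35 CpGs in 250 bases and 4 CCGG sites in its window, had none listed in either library. Hoxd9 held 6 CCGG sites, and 1 of them had 6 counts in both libraries. In the Hoxd13 window, 2 of 3 CCGG sites were listed in differentiated cells with 5 counts each, 4 bases apart, so that 1 read can count at both. Hoxa2, Hoxa5, Hoxa9, Hoxa11 and Hoxd3 had CCGG sites in their windows and none listed. The windows of Hoxa7, Hoxb4 and Hoxd8 held no CCGG, so nothing can be read there.

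The other listed promoter sites had low counts. They are shown in 30 bases around the CCGG, on the strand of the gene, since they are the promoter positions at which these libraries can be compared.
Hoxa10 (chr6:52235144-52235173): agcccccacagttCCGGcctttgagccata
Hoxc4 (chr15:103034321-103034350): ggcccactggaggCCGGagaggagactctg
Hoxb1 (chr11:96365712-96365741): gggccaagctggcCCGGgccatgggctcaa
Hoxd1 (chr2:74762810-74762839): ccccgcccttccgCCGGcgccgctctcccc
Hoxa3 (chr6:52213247-52213276): ggctgcgctttgtCCGGcgatggcgagcga
Hoxa6 (chr6:52208772-52208801): cggggagcgggctCCGGcgctctttcccat
Hoxb8 (chr11:96281767-96281796): acaacaacagactCCGGctttattgcgttt
The Hoxa10 site had 9 counts in undifferentiated and 18 in differentiated cells. The Hoxc4 site had 5 and 14, and the Hoxb1 site 8 and 5. The Hoxd1 site had 10 counts and the Hoxa6 site 6, both in differentiated cells alone. The Hoxa3 site had 6 counts and the Hoxb8 site 7, both in undifferentiated cells alone. None of these sites was called different.

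Summed over the promoter windows, 9 of 48 CCGG sites were listed in undifferentiated cells (18.8%, 95% Wilson interval 10.2 to 31.9) and 11 in differentiated cells (22.9%, 13.3 to 36.5), 5 of them in both. Over all promoters, 10.3% and 11.7% of 39736 CCGG sites were listed. The Hox sites that were listed had a median of 8 and 10 counts, and those of all promoters 15 and 11. The share depends on how many CCGG sites a window holds. In the 7 Hox windows with 3 or more, 9.38% and 21.9% of 32 sites were listed, against 3.4% and 5.74% in all such promoters. With 1 or 2 CCGG sites, 37.5% and 25% of 16 Hox sites were listed, against 24.1% and 23.7%. With so few Hox sites the intervals are wide, and a minimum of 10 counts in place of 5 left 6.25% and 12.5% of the 48 sites.

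Within 1 kb of a start, 15 of the 22 genes with a start position had a listed CCGG site in undifferentiated cells (68.2%) and 20 in differentiated cells (90.9%). The shares over 27025 genes were 43.9% and 47.9%. Hoxd12 had the most sites near its start, with 7 and 9, and 1 of them was called higher. Hoxa3 had 4 sites with 46 counts and then 1 with 10, and 1 site was called lower. Hoxa9 and Hoxd3 had none in either library. Hoxa7, Hoxa11, Hoxb4, Hoxd11 and Hoxd13 had none in undifferentiated cells and between 1 and 3 in differentiated cells. The numbers were small, with 5 to 16 counts in all for each of these genes, so that most of these sites lay close to the minimum of 5. Of 14 Hox cofactor and related homeobox genes, 12 had a start position. Those with a listed site within 1 kb numbered 5 (41.7%) and 6 (50%). Pdx1, a ParaHox gene, had 4 and 5 sites with 97 and 125 counts, and Cdx4, a regulator of Hox genes, 1 and 5 sites with 5 and 38 counts. Among the Meis and Pbx genes, whose products are partners of Hox proteins on DNA, Meis1, Meis2 and Pbx2 had none, Pbx4 had 1 site in each library with 10 and 11 counts, and Meis3 had none and then 3 sites with 16 counts. Evx1 had 1 and 3 sites with 28 counts in each library, with 1 site called higher and 1 lower. Gsx1 had none and then 1, Gsx2 1 and then none, and Cdx2 and Evx2 none.

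The cores held more listed CCGG sites than the flanks, but with fewer counts per site. In the cores 375 CCGG sites were listed in undifferentiated and 377 in differentiated cells, or 0.74 and 0.744 per kb. The flanks held 198 and 172 sites, or 0.495 and 0.43 per kb, and the whole genome 0.264 and 0.248 per kb. Listed sites in the cores had a median of 11 counts (quartiles 7 and 20) and 10 counts (7 and 16), those in the flanks 17 and 17, and those of the genome 19 and 17. The share of listed sites with at least 20 counts was 26.1% (95% Wilson interval 21.9 to 30.8) in the cores of the undifferentiated library and 18.3% (14.7 to 22.5) in differentiated cells. In the flanks it was 46.5% (39.7 to 53.4) and 45.9% (38.7 to 53.4), close to the 47.8% and 45.3% of the genome. How many CCGG sites the core sequence holds was not counted here, so a density per CCGG was had for promoters alone.

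The 4 clusters shared the low counts but differed in density. The Hoxd core was the densest, with 0.895 and 0.914 sites per kb, and its flanks the sparsest, with 0.26 and 0.22. The Hoxc core had 0.829 and 0.846 sites per kb and its flanks 0.49 and 0.46. The Hoxa core had 0.667 and 0.752, with 0.52 and 0.48 in the flanks. The Hoxb core was the exception: it had 0.633 and 0.572 sites per kb, and its flanks 0.71 and 0.56, so that in undifferentiated cells they were denser than the core. In each of the 4 clusters and in both libraries, the share of sites with at least 20 counts was lower in the core than in the flanks. The Hoxa core had the lowest shares, 15.7% and 10.1%, against 42.3% and 41.7% in its flanks. The Wilson intervals of core and flanks overlapped for Hoxd in undifferentiated cells, with 31.9% (23.4 to 41.9) in the core and 46.2% (28.8 to 64.5) in the flanks. For Hoxc they overlapped narrowly in both libraries, with 26.8% (19 to 36.4) against 49.0% (35.6 to 62.5) and 21.2% (14.3 to 30.3) against 43.5% (30.2 to 57.8).

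**Figure D1:**
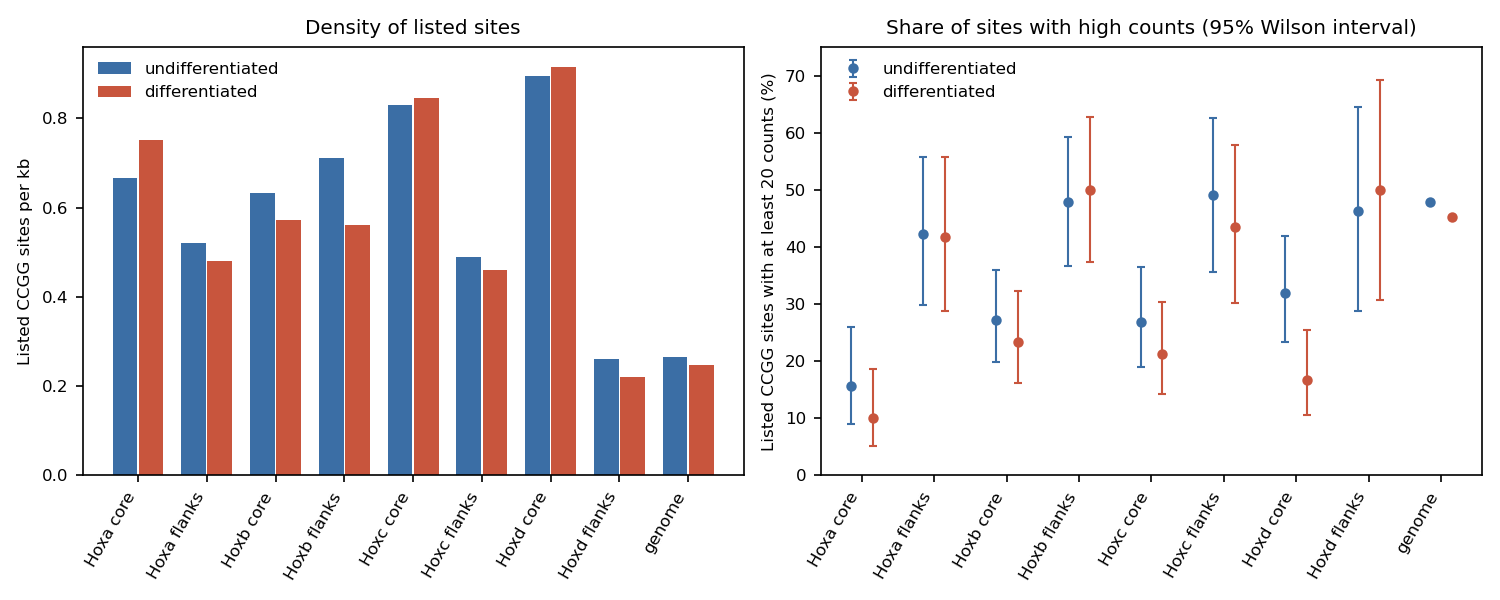
Left, listed CCGG sites per kb in the core and flanks of each cluster and in the genome, 1 bar per library; right, the share of listed sites with at least 20 counts, with 95% Wilson intervals. The cores are dense in sites except Hoxb relative to its flanks, and the points of all 4 cores lie below those of their flanks.

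Along the clusters the listed sites were spread unevenly. Of 101 tiles of 5 kb that lie in the cores, 11 held no listed CCGG site in undifferentiated and 11 in differentiated cells, 5 of them in both (4.95%), against 39.5% of all tiles of the genome. The tiles with the most counts lay in the body of Hoxd3. The tile chr2:74740001-74745000 had 237 counts over 10 sites and 149 over 9, and the tile chr2:74735001-74740000 had 224 over 12 sites and 188 over 10. In Hoxa the highest tile, chr6:52205001-52210000 at Hoxa6, had 151 and 142 counts. In Hoxc it was chr15:102945001-102950000, between Hoxc12 and Hoxc11, with 180 and 155 counts.

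The longest stretches with no listed CCGG site differed between the libraries. In Hoxa the longest one of the undifferentiated library, 5.54 kb, held the whole of Hoxa7, where 3 sites were listed after differentiation. In Hoxc a stretch of 11.6 kb held the whole of Hoxc11, and shrank to 7.5 kb when 2 sites of 5 counts were listed there, which are 11 bases apart and can count the same reads. In Hoxd the stretch ran from the end of Hoxd8 into the first part of Hoxd3, 9.86 kb and 7.83 kb long. In Hoxb the longest stretches lay between Hoxb13 and Hoxb9, at 8.41 kb and 11.7 kb, and held no gene. With a minimum of 10 counts the longest stretch in Hoxb was 24.0 kb, over Hoxb8 and Hoxb7, in undifferentiated cells, and 25 kb, over Hoxb2, in differentiated cells. Over the whole genome 5% of distances between neighbouring listed sites were longer than 14.0 kb and 15.1 kb, and the stretches at the minimum of 5 counts were all shorter than that.

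**Figure D2:**
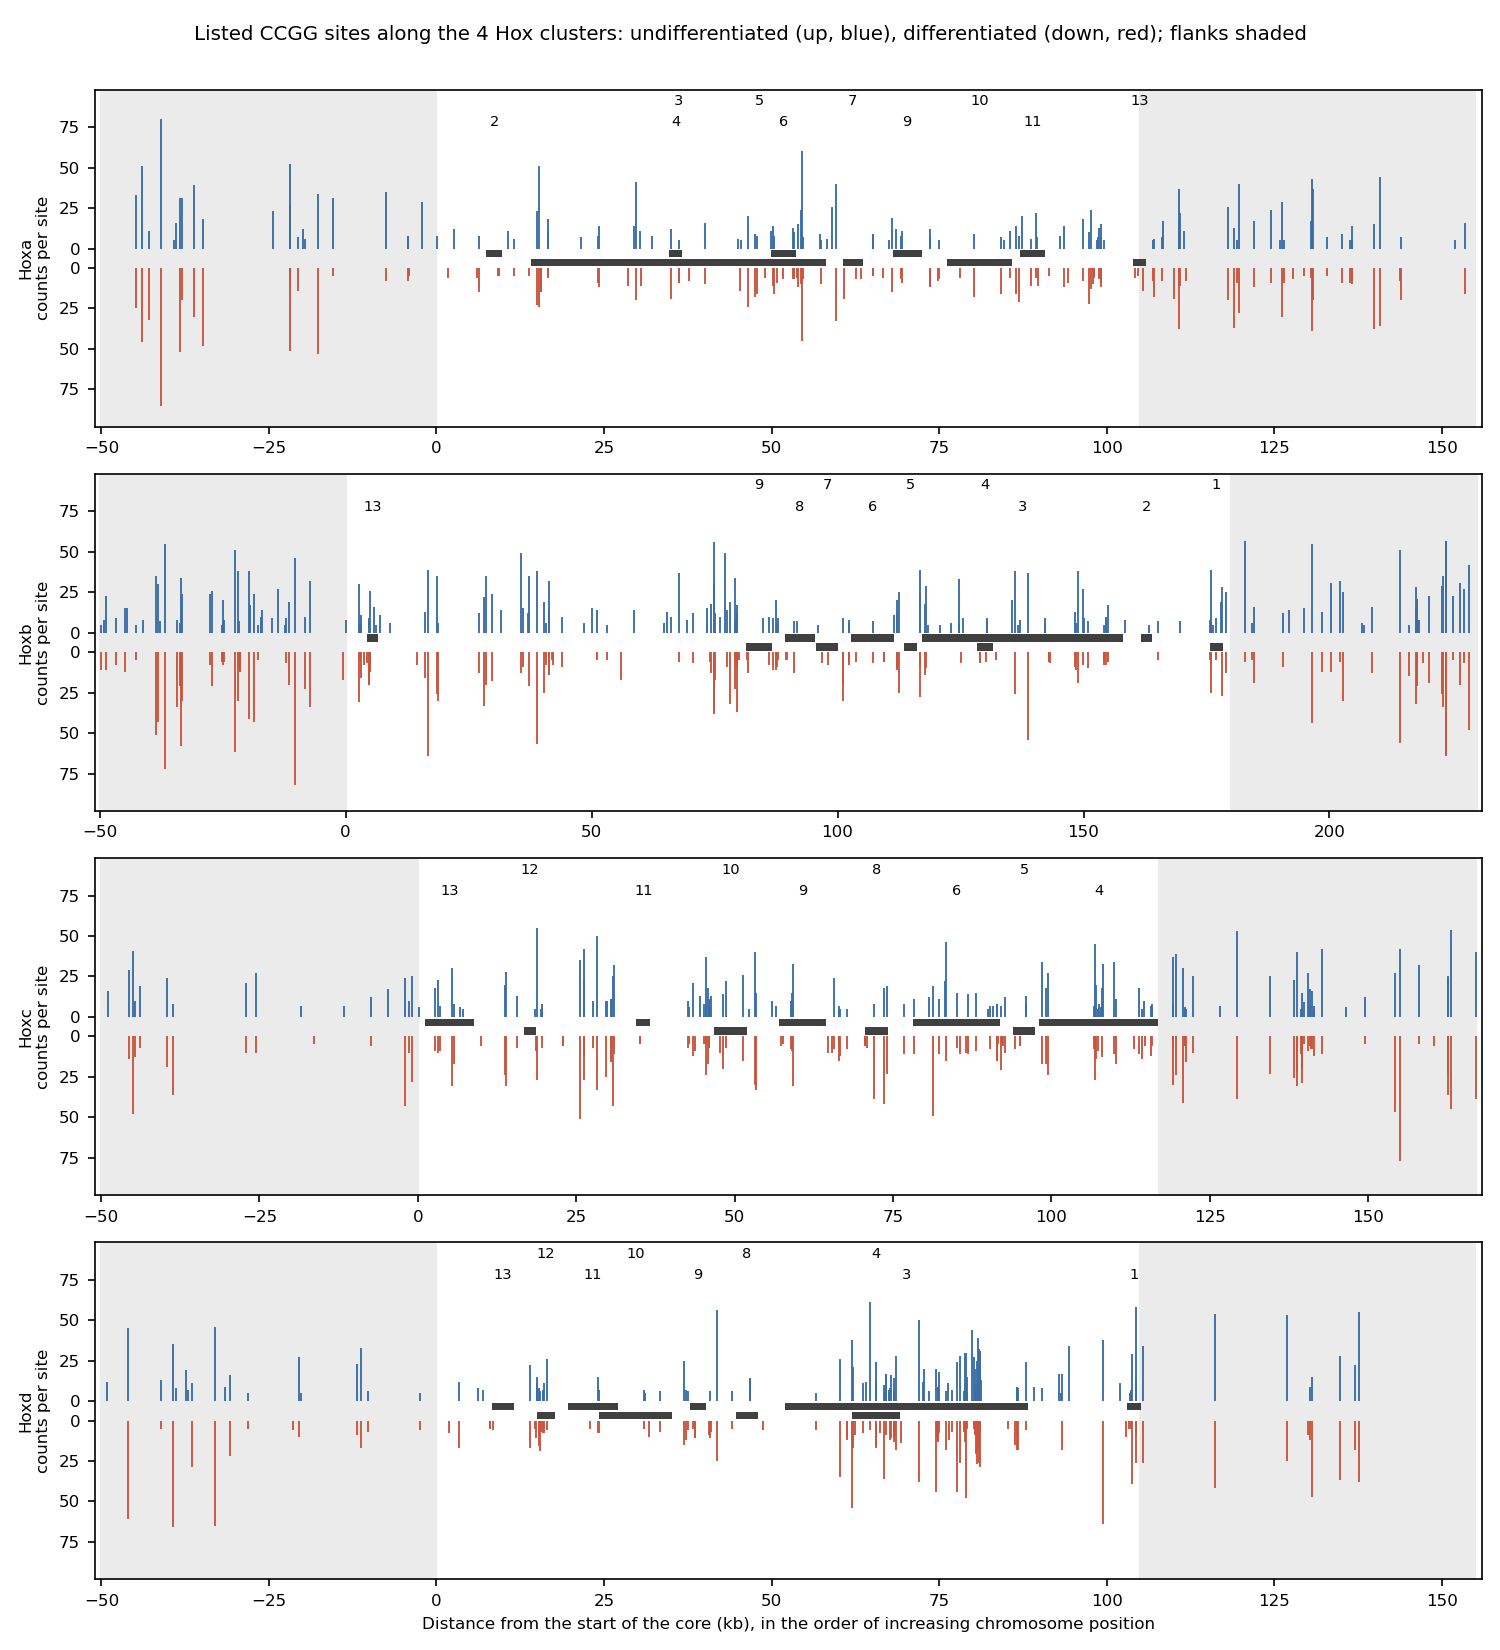
Counts at each listed CCGG site (lines) along the 4 clusters, in kb from the start of the core, with the undifferentiated library upwards and the differentiated library downwards; dark bars are the 38 gene bodies, labelled by paralogue number in 2 rows, and shading marks the flanks. The sites crowd in the Hoxd3 and Hoxd4 bodies, and the lines in the flanks are on the whole taller than those in the cores.

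All 38 gene bodies were placed on the build. The median number of listed CCGG sites per gene was 2.5 in undifferentiated and 3.0 in differentiated cells. More sites were listed after differentiation in 21 genes, fewer in 12 and the same number in 5. By counts, 20 genes had more and 17 fewer, and per 1000000 CCGG counts of the library 23 had more and 14 fewer. These numbers of genes do not show a gain over the clusters. The cores as a whole had 375 and 377 listed sites, and the log2 ratio of their counts was -0.09. The same tally was not made over all genes. Some bodies overlap, and their sites count for both genes: Hoxa3 with Hoxa4, Hoxa5 and Hoxa6, Hoxb3 with Hoxb4, Hoxd3 with Hoxd4, and Hoxd10 with Hoxd11. Levels are compared between genes per kb.

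The anterior genes, numbers 1 to 4, held the most sites. Per kb, their bodies had 0.961 and 0.891 sites inside the cores, the central bodies 0.594 and 0.81 and the posterior bodies 0.59 and 0.711. This order did not hold in every cluster. In Hoxd the anterior bodies had 1.59 and 1.54. In Hoxa they had 0.578 and 0.654, below the central bodies with 0.729 and 1.35, and in Hoxb 0.744 and 0.569, below the posterior bodies with 0.926 and 1.06. In Hoxc they had 1.01 and 0.853, and the central bodies 0.913 and 1.06. Hoxd3, annotated over 36.3 kb, had 56 sites with 998 counts in undifferentiated and 54 with 876 in differentiated cells, or 1.54 and 1.49 sites per kb. Hoxd4, which patterns neck vertebrae and lies inside it, had 19 sites with 285 counts and 15 with 197. Hoxd1, at the 3′ end, had 5 sites in each library with 113 and 84 counts, and Hoxb1, which specifies a segment of the hindbrain and is a known target of retinoic acid, had 6 sites with 106 counts and 5 with 70. Hoxb3 had 27 sites with 391 counts and 21 with 239. Hoxc4 had 19 sites with 320 counts and 16 with 214. Each of these 6 genes had fewer counts after differentiation.

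The remaining anterior genes varied. Hoxa3 had 30 sites with 463 counts and 34 with 436, and Hoxa4, inside it, 2 sites with 17 counts and 3 with 37. Hoxb4 had 2 sites with 17 counts and 3 with 20, and 4 of its 5 sites are close enough to count the same reads. Hoxa2, a gene of the hindbrain and its neural crest, had no listed site and then 2 sites with 5 counts each. Hoxb2 had 1 site with 5 counts and then none. Values this close to the minimum of 5 counts do not show a difference.

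Among the central genes, numbers 5 to 8, Hoxb5 had no listed CCGG site in either library over its 2.61 kb. Hoxb8 had 2 and 3 sites, Hoxb7 1 and 2, and Hoxb6 2 and 5, none above 13 counts. Hoxa5 had 2 sites with 17 counts and 3 with 40, and Hoxa6 5 sites with 56 counts and 7 with 62. Hoxa7 had none and then 3 sites with 33 counts. Hoxc8, which patterns the thorax, had 3 sites with 45 counts and 6 with 123. Hoxc6 had 14 sites with 200 counts and 13 with 177, and Hoxc5 2 sites with 21 counts and 3 with 20. In Hoxc8, Hoxc6 and Hoxc5, 2 sites of each gene can count the same reads. Hoxd8 had 2 sites with 14 counts each and then none listed. These sites are 4 bases apart, so the same reads can count at both, and neither was called (adjusted p = 0.102 by Fisher's exact test).

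Among the posterior genes, numbers 9 to 13, Hoxd12 stood out by its density, with 7 sites and 74 counts in undifferentiated and 8 sites and 75 counts in differentiated cells, or 2.6 and 2.97 sites per kb. Hoxb13, which lies apart from the rest of its cluster, had 5 sites in each library, with 64 and 70 counts. Its sites chr11:96194836 and chr11:96194845, with 8 and 9 counts and then 20 each, can count the same reads. Hoxa13, Hoxd13, Hoxd9 and Hoxc11 had none in undifferentiated cells and 25, 6, 27 and 10 counts in differentiated cells. The 10 counts of Hoxc11 and 22 of the 27 of Hoxd9 come from a pair of sites 11 bases apart in each gene, where the same reads can count at both. Hoxa9 had 3 sites with 31 counts and 2 with 16, and Hoxa11 4 sites with 55 counts and 3 with 28. Hoxa10 and Hoxd10 had 4 sites in each library, with 32 and 46 counts in Hoxa10 and 25 and 30 in Hoxd10. Hoxc13 had 7 sites with 97 counts and 5 with 76, Hoxc10 3 with 62 and 4 with 52, and Hoxc9 3 with 58 and 5 with 59. Hoxb9 had 2 sites with 19 counts and 3 with 26, Hoxd11 2 with 22 and 3 with 21, and Hoxc12 1 site with 5 counts and then none.

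**Figure D3:**
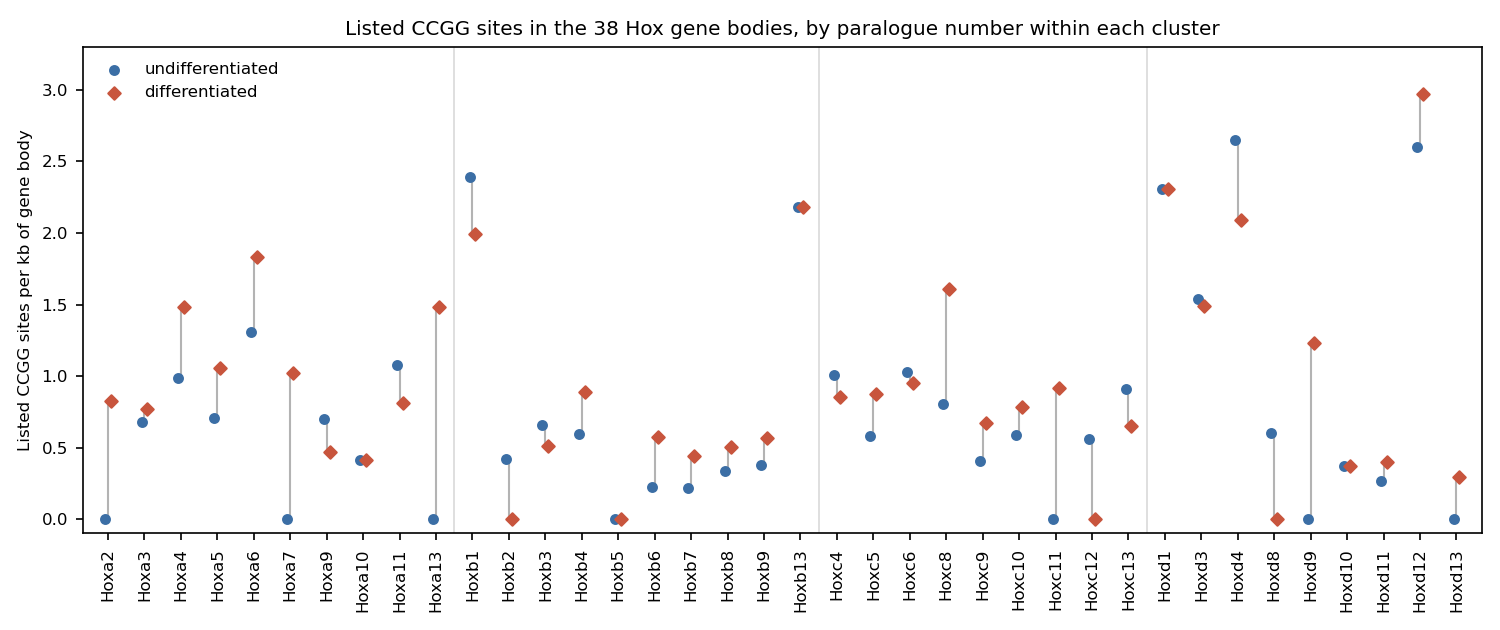
Listed CCGG sites per kb of gene body for the 38 genes, ordered by paralogue number within each cluster, with circles for the undifferentiated and diamonds for the differentiated library. Hoxd12, Hoxd4, Hoxb1, Hoxd1 and Hoxb13 lie highest, and Hoxb5 is at 0 in both libraries.

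For the sums over paralogue numbers, a site in 2 overlapping bodies was given to the shorter gene, and only sites inside the cores entered. This left out 1 listed site of Hoxa13, chr6:52260481, which was unlisted and then had 14 counts. Summed over the 4 clusters, the anterior bodies had 137 listed CCGG sites with 2323 counts in undifferentiated and 127 sites with 1827 counts in differentiated cells. The log2 ratio of differentiated over undifferentiated was -0.21 (interval from counting error -0.29 to -0.12), on counts per 1000000 CCGG counts and with 4 counts at sites unlisted in 1 library. The central bodies went from 33 sites with 404 counts to 45 with 523, a log2 ratio of 0.28 (0.11 to 0.45). The ratio of the central bodies was 0.55 (0.18 to 0.92) in Hoxa, 0.30 (-0.16 to 0.77) in Hoxb, 0.28 (0.05 to 0.50) in Hoxc and -1.72 (-2.85 to -0.59) in Hoxd. The Hoxd value comes from the 2 neighbouring sites of Hoxd8 alone, both unlisted in differentiated cells. It is therefore an upper limit, and its intervals here and below rest on the 4 counts given to unlisted sites. Such filled counts enter the other intervals as if read, which makes them narrower. Where sites at most 16 bp apart can count the same read, the intervals are too narrow. With 1 site kept of each such run the central ratio was 0.24 (0.01 to 0.47) in Hoxc and -1.72 (-3.32 to -0.12) in Hoxd, and 0.29 (0.11 to 0.47) over the 4 clusters, while Hoxa and Hoxb held no such sites. The anterior ratios were -0.41 in Hoxb, -0.40 in Hoxc, -0.12 in Hoxa and -0.10 in Hoxd, and the intervals of the last pair included 0. The posterior bodies went from 44 sites with 537 counts to 53 with 545, a log2 ratio of 0.02 (-0.14 to 0.18). The cores outside the 38 bodies went from 161 sites with 2553 counts to 152 with 2188, a log2 ratio of -0.10 (-0.18 to -0.02). Another scaling moves every site by 1 constant, by -0.16 with the median ratio of sites and by -0.23 with the divisors behind the deposited RPM column. The anterior value then became -0.36 and -0.43, the central value 0.12 and 0.05 and the posterior value -0.14 and -0.21. Whether the anterior intervals of Hoxa and Hoxd included 0 depended on the scaling. They were -0.48 to -0.08 and -0.38 to -0.14 with the median ratio, and -0.55 to -0.15 and -0.45 to -0.21 with the RPM divisors. With 4 counts at unlisted sites, the interval of the central value included 0 under both, at -0.05 to 0.30 and -0.12 to 0.23. With this fill its rise thus rests on the scaling by CCGG totals. More of the central sites took the 4 counts in undifferentiated cells, which lowers the ratio, and no other fill was tried for these classes. The sign of the posterior value also depends on the scaling. Its interval was -0.30 to 0.03 with the median ratio and -0.37 to -0.04 with the RPM divisors. With 1 site kept of each run the posterior value was -0.03 (-0.20 to 0.13) on CCGG totals. It was then -0.19 (-0.35 to -0.02) with the median ratio and -0.26 (-0.42 to -0.09) with the RPM divisors.

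For the cores as a whole the log2 ratio was -0.09 (interval from counting error -0.15 to -0.04) and for the flanks 0.01 (-0.05 to 0.07), against 0.02 for the genome. Among the cores it was -0.18 (-0.28 to -0.09) for Hoxb, -0.10 for Hoxd, -0.03 for Hoxc and -0.02 for Hoxa. The Hoxb value was alike in the part from Hoxb9 to Hoxb1, -0.23, and in the gap between Hoxb13 and Hoxb9, -0.20. Under the median ratio the flanks also turned negative, to -0.15, and the cores moved to -0.25. The cores stayed below the flanks by about the same amount, since a scaling moves both.

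Fisher's exact test on each CCGG site, two-sided with Benjamini-Hochberg adjustment over 763323 sites of the genome, compared the 2 libraries. It called 23.5% of them, with 11.6% higher after differentiation and 11.9% lower. In the cores 58 of 445 tested sites were called (13%), 22 higher (4.94%) and 36 lower (8.09%). In the flanks 40 of 206 were called (19.4%), 20 in each direction. The core shares were below the background here. For lower calls this did not hold under 2 other settings. With unlisted sites as 0, 71 of 332 core sites were lower (21.4%, genome 20.7%), and with a summed count of at least 20, 38 of 197 (19.3%, genome 18.8%). The share of higher calls was below that of the genome under both, at 15.1% against 18.1% and 11.2% against 17.7%. The low counts of core sites move with this, and their part in it was not tested. By a difference of at least 2-fold with no test, 84 core sites were higher (18.9%, the same as the 18.9% of the genome) and 88 lower (19.8%, genome 21.7%). The split of calls moved with the scaling. Higher calls made up 37.9% of the calls in the cores, and 20.0% with the median ratio and 19% with the RPM divisors, against 49.3%, 35.9% and 31.0% over the genome.

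Of the 36 lower sites 23 were in gene bodies and of the 22 higher sites 11. The anterior bodies held 17 lower (10.8%) and 6 higher calls (3.82%) of 157 tested, against 11.9% and 11.6% over the genome. The central bodies held 2 lower (4%) and 4 higher (8%) of 50, and the posterior bodies 4 lower (7.55%) and 1 higher (1.89%) of 53. None of these shares was above the background. Hoxd3 had 8 lower and 4 higher calls, of which 2 lower and 1 higher lay in Hoxd4. Hoxb3 had 4 lower and none higher, and Hoxc4 2 lower and none higher. Hoxc8 had 2 higher and none lower.

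In Hoxd4 the site chr2:74724644 had 61 counts in undifferentiated and 6 in differentiated cells, a log2 ratio of -3.26 (adjusted p = 3.66e-09 by Fisher's exact test). It was named after its values were seen, as the lowest adjusted p in the cores. The site chr2:74726790 of the same gene went from 10 to 36 counts, a log2 ratio of 1.94. The site chr2:74739964 in the Hoxd3 body had 44 counts and was then unlisted, at least 10.4-fold lower (adjusted p = 6.87e-07 by Fisher's exact test). Sites in 1 gene thus moved in both directions.

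In the Hoxb cluster the site chr11:96267040, which is 4290 bases from Hoxb9 and outside the genes, had 49 counts and was then unlisted, at least 11.5-fold lower (adjusted p = 6.73e-08 by Fisher's exact test). The site chr11:96208766, in the gap next to Hoxb13, rose from 6 to 30 counts, a log2 ratio of 2.41. The same ratio, there a lower bound, was found at chr11:96291202, which is 1039 bases from Hoxb7. That site was unlisted and then had 20 counts, and was also called higher. The sites with the most counts in this core all lay in the gap between Hoxb13 and Hoxb9. They were chr11:96206674 with 39 and 64 counts, chr11:96228933 with 38 and 57, and chr11:96264915 with 56 and 38, of which the first was called higher. In the Hoxb flanks chr11:96372829, which is 4575 bases from Hoxb1, fell from 57 to 6 counts, and chr11:96155707 rose from 8 to 34.

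In Hoxc the largest called rise was in Hoxc8 at chr15:102992030, from 8 to 39 counts, a log2 ratio of 2.37 (adjusted p = 5.08e-05 by Fisher's exact test). The second called site of Hoxc8, chr15:102993661, had 18 and 42 counts. The largest called fall was in Hoxc4 at chr15:103028152, from 33 counts to unlisted, at least 7.76-fold lower. The sites with the most counts lay around Hoxc12 and before Hoxc11, outside the bodies. The site chr15:102945543 had 35 and 51 counts, chr15:102948267 had 50 and 33, and chr15:102938785, at 176 bases from Hoxc12, had 55 and 27 and was called lower. In the Hoxc flanks chr15:103058741 was unlisted and then had 22 counts, and chr15:103078036 fell from 32 to 5.

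In Hoxa the largest called rise was in Hoxa7 at chr6:52215809, unlisted and then 19 counts, at least 5.05-fold higher (adjusted p = 0.00903 by Fisher's exact test). The largest called fall was at chr6:52213951, 884 bases from Hoxa3, from 26 counts to unlisted, at least 6.12-fold lower. Of the 3 sites with the most counts, chr6:52209538 in the Hoxa3 body had 60 and 45 and was not called. The site chr6:52170341, also in Hoxa3, had 51 and 24 and was called lower, and chr6:52214617, between Hoxa3 and Hoxa7, had 40 and 33. In Hoxa3, 2 called sites with 15 counts each in differentiated cells, chr6:52170606 and chr6:52170615, were close enough to share reads. In the Hoxa flanks chr6:52265081 was unlisted and then had 19 counts, and chr6:52152818 fell from 29 to unlisted.

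In Hoxd the largest called rise was in Hoxd12 at chr2:74675425, unlisted and then 19 counts, at least 5.05-fold higher. A second site in Hoxd12, chr2:74676471, fell from 26 to 6 counts. The site with the most counts, chr2:74759518, which is 3462 bases from Hoxd1, had 38 and 64 counts and was called higher (adjusted p = 0.0225 by Fisher's exact test). The next were the Hoxd4 promoter site described above and chr2:74732041 in the Hoxd3 body, with 50 and 38 counts. In the Hoxd flanks chr2:74790686 rose from 15 to 47 counts and chr2:74622595 fell from 19 to unlisted.

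**Figure D4:**
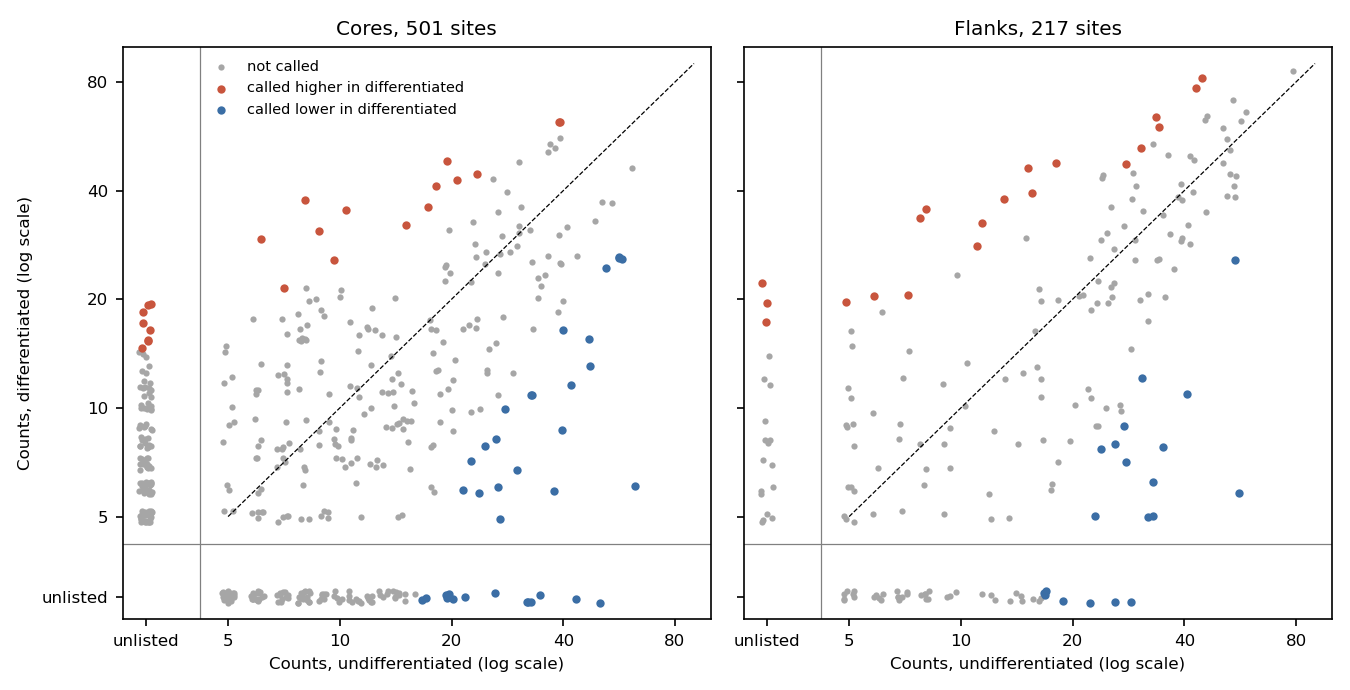
Counts of each listed CCGG site in the undifferentiated (x axis) and differentiated library (y axis), both on log scales, for 501 sites of the cores (left) and 217 of the flanks (right); sites unlisted in 1 library lie beyond the thin lines, positions are jittered, and colours mark called sites. Most of the 124 and 126 core sites listed in a single library have fewer than 20 counts, and sites above 40 counts are sparse in the cores.

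Of the 501 core sites 251 were listed in both libraries, 124 in the undifferentiated alone and 126 in the differentiated alone. In the cores 66.9% (95% Wilson interval 62.0 to 71.5) of the undifferentiated sites were listed again after differentiation, against 77.3% (70.9 to 82.6) in the flanks and 79.9% in the genome. Core sites had fewer counts, and the shares are given by count. Of core sites with 5 to 9 counts in undifferentiated cells 52.5% (44.8 to 60.1) were listed again, against 57.1% in the genome. With 10 to 19 counts it was 68.4% (59.5 to 76.1) against 76.0%, with 20 to 39 counts 88.8% (80 to 94) against 90.9%, and with 40 or more 88.9% (67.2 to 96.9) against 98.1%. The core share was the lower one in each of these classes, with intervals that held the genome share except at 40 or more counts. In the other direction 49.7% (42.6 to 56.9) of core sites with 5 to 9 counts in differentiated cells were listed in undifferentiated cells, against 63.3% in the genome. With 10 to 19 counts it was 74.0% (65.6 to 80.9) against 84%. With more counts the core share was not the lower one, at 98.2% (90.6 to 99.7) against 96.7% for 20 to 39 counts and 13 of 13 sites against 99.8% for 40 or more.

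In windows of 100 kb the same test called 36.2% of 25214 windows of the genome. Of the 9 windows that cover the cores, with part of the flanks, it called 1, chr11:96300001-96400000, which holds Hoxb5 to Hoxb1 and 30 kb beyond the core. It went from 60 listed sites with 1000 counts to 44 with 571, a log2 ratio of -0.53 with 4 counts at unlisted sites (adjusted p = 5.55e-12 by Fisher's exact test). The 5th and the 95th percentile of all windows were -0.48 and 0.48. Of 62 tested sites in this window 9 were called lower (14.5%, against 11.9% over the genome) and none higher, 6 of 49 on the core side and 3 of 13 on the flank side. These sites make up the sums by which the window was called, so their direction adds nothing to it. The ratio was -0.46 on the core side and -0.73 on the flank side. Without the site with the largest fall, which is in the flank, it was -0.46 for the window. The percentiles are those of whole windows with no site left out. Neither the core side nor the window without that site can therefore be placed against them. The other windows lay between -0.12 and 0.09, and the window of Hoxd3, Hoxd4 and Hoxd1 had an adjusted p of 0.0535. A call on 1 window in 9 is below the background share of windows called.

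FspEI also reads methylated cytosine in CCAGG and CCTGG, where the methylated base is not in a CpG. In the cores 138 such sites were listed in undifferentiated and 197 in differentiated cells. They held 18.3% (95% Wilson interval 17.5 to 19.3) and 28.7% (27.6 to 29.7) of the counts in the cores, 18.9% (17.9 to 20.0) and 22.7% (21.6 to 23.9) in the flanks, and 18.8% and 26.2% in the genome. Every core had a higher share in differentiated cells. The Hoxb core had the highest, 22.0% and 32.4%. The Hoxa core had 15.7% and 27.4%, the Hoxc core 15.9% and 27.0%, and the Hoxd core 17.8% and 26.9%. A fragment can hold both motifs: away from listed CCGG sites, more than 100 bp, the shares in the cores were 7.03% and 15.5%.

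The clusters also encode microRNAs that repress Hox messages, and the hairpin of Mir196a-1, between Hoxb13 and Hoxb9 (chr11:96265164-96265265, + strand, RefSeq GRCm38.p6), itself holds a CCGG, shown in capitals.
Mir196a-1: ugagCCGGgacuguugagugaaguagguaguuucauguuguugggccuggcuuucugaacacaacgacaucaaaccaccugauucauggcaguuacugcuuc
This site, chr11:96265168, was listed in both libraries, with 12 and 17 counts. Within 1 kb of the hairpin 5 sites with 127 counts and 4 with 105 were listed. Near Mir10a, in the Hoxb3 body, no site was listed within 1 kb in either library, and near Mir10b, in Hoxd4, 6 sites with 85 counts and 5 with 86 were. The mature miR-10a and miR-10b belong to 1 family.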

How the data were processed

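MethylRAD libraries of undifferentiated and differentiated F9 cells, 1 per state, were analysed from the deposited site tables. Per the submitters' processing notes FastQC 0.11.3, Bowtie2 2.3.3 and the build GRCm38 were used. The counts deposited by the authors are reads per site, in whole numbers, with none below 5. The deposited RPM column sums to more than 1000000, and was treated as a score used only as an alternative scaling. Of 5806 listed CCGG sites in RefSeq GRCm38.p6 promoter windows, 98.35% held CCGG at the listed base. Levels are counts per 1000000 CCGG counts. Sites unlisted in 1 library took 4 counts, so folds there are lower bounds. Sites summing to 10 or more counts over both libraries, and windows summing to 50 or more, were tested by Fisher's exact test (threshold 0.05, Benjamini-Hochberg). On simulated data with 200 sites changed 4-fold, 55.0% were recovered among 754426 sites. Recovery at the low counts of core sites was not measured. A summed count of at least 20 was reached by 197 of 445 tested core sites, against 542021 of 763323 in the genome. The edges of the spans were set by position, but members, lists and rules were chosen with earlier results of these data known. Ratios of paralogue classes under other scalings, and with 1 site kept of each run of sites at most 16 bp apart, were added after seeing the data. Sites named were, per core, the 3 with the highest counts and the largest called rise and fall, and per flank pair the latter. Other sites are named as chosen after their values were seen. Sites within 1 kb of starts are given as numbers, and singly in promoter windows. Scripts ran in Python 3.11.15 with pandas 2.3.3, scipy 1.17.1 and numpy 2.4.6; figures were drawn with matplotlib 3.10.9.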

Additional observations from a re-analysis of the deposited data

How the results depend on the processing

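With a minimum of 10 counts the density of listed CCGG sites fell to 0.424 and 0.379 per kb in the cores (undifferentiated and differentiated library) and 0.338 and 0.287 in the flanks, and the share of Hox promoter sites listed to 6.25% and 12.5%. The share of counts at CCAGG and CCTGG sites was then 13.4% and 24.3% in the cores and 15.5% and 17.8% in the flanks. Restricted to those over 100 bp away from any listed CCGG it was 7.03% and 15.5%, and 8.98% and 13.6%. Among sites listed in both libraries the median counts were 14 and 12 in the cores and 24 and 20 in the flanks, and the log2 ratio of the flanks was 0.076. With the median ratio the log2 ratio was -0.249 in the cores and -0.146 in the flanks, and with the RPM divisors -0.319 and -0.216. Of core sites, 11 of 445 were called higher with the median ratio (2.47%, genome 8.43%), 11 with the RPM divisors (2.47%, genome 7.33%), 50 of 332 with unlisted sites as 0 (15.1%, genome 18.1%), 14 of 251 listed in both libraries (5.58%, genome 13.1%) and 84 of 445 by 2-fold. Called lower were 71 core sites with unlisted sites as 0 (21.4%, genome 20.7%), 22 listed in both (8.76%, genome 10.4%) and 88 by 2-fold. In the flanks 34 of 206 were lower with the RPM divisors (16.5%, genome 16.3%), 34 of 177 with unlisted sites as 0 (19.2%), 13 of 153 listed in both (8.5%) and 43 by 2-fold. The flank ratio, near 0, was also negative without the 1000 highest sites (-0.0283), with unlisted sites as 0 (-0.0287) and without the highest site of each region (-0.0293). The median ratio called 29 flank sites lower (genome 15.0%). The share of all CCGG sites in the core sequence that were listed was not run, since no genome was at hand. No paired analysis was possible because each state had 1 library. At 5 to 9 counts per site, where 42.7% and 49.1% of listed core sites lay, depth limits the comparison of single sites, and the cause of the shifts was not tested.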
